A study of Mus with 6 samples.

Results

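The genes described here are 6 integrin subunits of the mouse lens epithelium: the alpha subunits Itga5, Itgav and Itga6 and the beta subunits Itgb1, Itgb5 and Itgb8. They were taken by gene name, as subunits that pair into receptors for fibronectin, for laminin and for latent TGF-beta, and they are 6 of the 55421 genes counted and 6 of the 16810 genes that passed the low-count filter. The libraries came from lens epithelial cells (LECs) of C57BL/6 mice with no mutation (genotype wildtype), labelled as 2 months old although the methods of the study give an older age range. LECs were taken on the lens capsule at 0 h and at 6 h post cataract surgery (PCS), a model in which the lens fiber cell mass is removed surgically and the capsule with its LECs stays in the eye. There were 3 libraries per time point, each a pool of 5 capsules. No group carried a genetic change or a drug treatment, and the 0 h PCS capsules had also undergone the surgery. By the series' design text the second eye of a mouse was operated 6 h after the first and both capsules were then collected, so pools of the 2 time points may share mice. Which pools do is not stated, and the methods speak only of pools of independent animals.

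Integrins are transmembrane receptors made of one alpha and one beta chain, and the pair sets the ligand. Alpha5 pairs with beta1 into the classical fibronectin receptor, alpha6 pairs with beta1 or beta4 to bind laminin, and alphaV pairs with beta1, beta5, beta8 and other beta chains to bind ligands with an RGD motif, among them vitronectin and the latent forms of TGF-beta. LECs sit on the laminin- and collagen-rich lens capsule, and integrins join their actin and intermediate filament cytoskeleton to it.

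Each library held between 18039974 and 24701039 read pairs counted on genes, which were 33.6% to 41.2% of its read pairs, and the level of each member rests on at least 509 counts in every library. Of 10 markers chosen for lens epithelium, 6 could be matched to a counted gene, and their summed level was 1700 to 1925 counts per 1000000 (CPM) at 0 h PCS and 1510 to 1772 CPM at 6 h PCS. Each of the 6 was at 31.4 CPM or more in every library. Among them Epha2 rose 2.32-fold (adjusted p = 0.0134 in edgeR's quasi-likelihood test), while Prox1 and Sox2 fell to 0.595 and 0.616 of their 0 h PCS levels (adjusted p = 0.0119 and 0.0151 in the same edgeR test). Each missed an adjusted p of 0.05 without certain libraries: Epha2 without 0 h PCS replicate 3 (0.0551), Prox1 without 0 h PCS replicate 1 (0.0709), and Sox2 without 0 h PCS replicate 1 or 3 (0.0567 and 0.0679). Scaled on library size alone, all 3 passed in the same direction, Epha2 at 1.87-fold and Prox1 and Sox2 at 0.475 and 0.493 of their 0 h PCS levels. Pax6 was at 0.703 of its 0 h PCS level and did not pass (adjusted p = 0.156 in the edgeR test). On library size alone it passed at 0.557 (adjusted p = 0.0153 in the edgeR test). With no low-count filter and without 6 h PCS replicate 1 it passed at 0.696 and 0.598 (adjusted p = 0.0144 and 0.0234 in that test). The 8 markers chosen for lens fiber cells were not analysed here. Markers of other cells that the capsule could carry were also detected. The 4 red cell markers (hemoglobins and Alas2) summed to 4.96 to 10.7 CPM at 0 h PCS and 45.4 to 85.5 CPM at 6 h PCS, and all 4 were called higher by edgeR's quasi-likelihood test (adjusted p of 0.00104 to 0.0321). Hbb-bs and Alas2 kept that call whichever library was left out, Hba-a1 in 4 of 6 fits and Hbb-bt in 2. Markers of leukocytes (6 of 12 matched) summed to 13.5 to 22.6 and 16.9 to 32.3 CPM, and of these Cd68 rose 5.84-fold (adjusted p = 0.0129 in the edgeR test) and the other 5 did not pass it. Without 0 h PCS replicate 1 or 6 h PCS replicate 3 Cd68 missed an adjusted p of 0.05 (adjusted p = 0.0671 and 0.0515 in the edgeR test), the latter at 4.21-fold. Those of platelets (3 of 5) summed to 4.26 to 5.68 and 8.32 to 36.8 CPM, and those of endothelium (4 of 5) to 4.10 to 26.3 and 20.0 to 36.9 CPM. Of the endothelial markers Kdr overlapped between time points (3.15 to 25.0 and 13.9 to 32.0 CPM), while Pecam1 and Cdh5 were higher in every 6 h PCS library. These missed it in edgeR's quasi-likelihood test (adjusted p = 0.0644 and 0.0529) and were called by edgeR's exact test (0.017 and 0.00628) and DESeq2 (0.0111 and 0.00303). Pigment cell markers (4 of 5) ran from 51.4 to 208.8 CPM at 0 h PCS and from 77.4 to 1965 CPM at 6 h PCS, where replicate 3 was the highest. Markers of corneal epithelium (3 of 4) summed to 347.7 to 495.2 and 318.0 to 450.8 CPM, most of it Aldh3a1. The other two, Krt12 (18.8-fold) and Krt5 (9.23-fold), were higher in every 6 h PCS library. They missed an adjusted p of 0.05 in edgeR's quasi-likelihood test (0.0792 and 0.146). Both were called by its exact test (0.002 and 0.0331) and DESeq2 (0.000486 and 0.0257). The quasi-likelihood test called them in 2 of 6 fits without a library. Krt12 and Krt5 were then at 58.8- and 24.4-fold without 0 h PCS replicate 1, and at 13.0- and 6.29-fold without 0 h PCS replicate 2. Markers of stroma (3 of 6) summed to 82.3 to 116 and 90.6 to 200.6 CPM. Among them Dcn was lower in every 6 h PCS library (means 5.03 and 1.78 CPM). Its adjusted p was 0.161 in edgeR's quasi-likelihood test, 0.0456 on library size alone, 0.021 with no low-count filter and 0.044 with a replicate block. Col1a1 was at 5.82-fold with overlap (adjusted p = 0.308 in the edgeR test), highest in 6 h PCS replicate 3 (116 CPM), and Col1a2 overlapped too. None of the matched markers was at 0 in all libraries, and the part of these cells in the results was not tested. In such bulk libraries a change in the number of cells of a type and a change in RNA per cell cannot be told apart.

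The first question was which of these subunits changed in mRNA level within 6 h of fiber cell removal. Itga5 rose about 4.62-fold, and it was the only member of the 6 that was differentially expressed. A differentially expressed gene (DEG) had a Benjamini-Hochberg adjusted p (FDR) of at most 0.05 in edgeR's quasi-likelihood test across all 16810 genes and more than a 2-fold difference in level. The count of 1 of 6 members stands beside 900 DEGs among all genes tested (5.35%), of which 762 (4.53%) were higher and 138 (0.821%) were lower at 6 h PCS. By FDR alone the count was also 1 of 6, beside 8.33% of all genes tested. The median log2 fold change was 0.24 over the 6 members and −0.003 over all genes tested.

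The libraries of both time points did not overlap for 3 members, Itga5, Itgav and Itgb1, and in each of them the 6 h PCS libraries were the higher ones. Such separation was found in 30.6% of all genes tested, with 15.3% higher at 6 h PCS and 15.3% lower. The time points overlapped for Itga6, Itgb5 and Itgb8. Levels below are CPM after TMM normalization, and errors are the SD over 3 libraries unless a standard error (SE) is named.

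**Figure D1:**
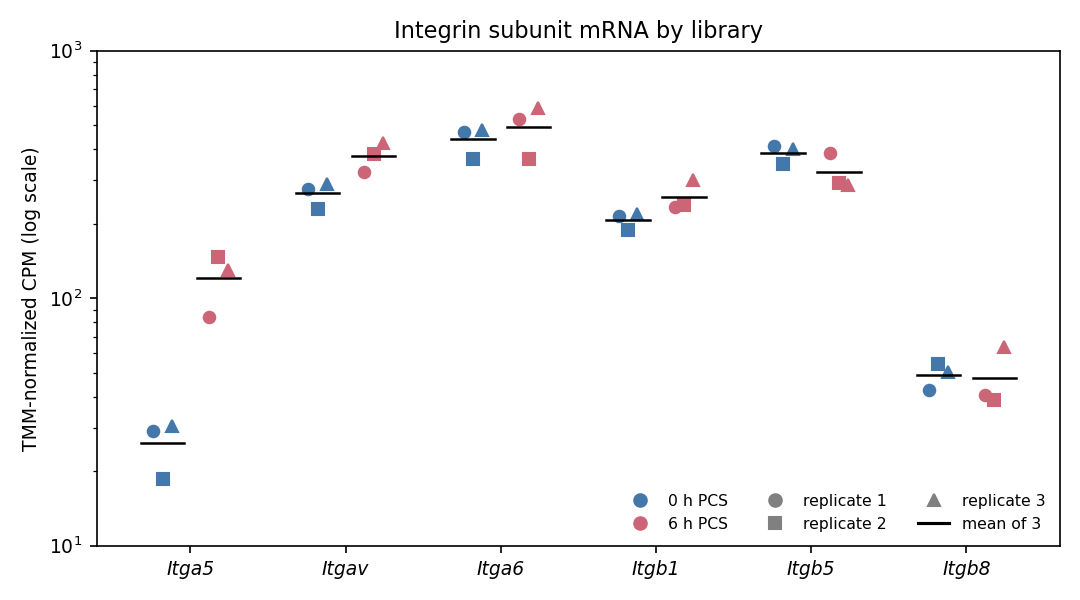
Level of each integrin subunit in each library, as TMM-normalized CPM on a log axis, at 0 h PCS (blue) and 6 h PCS (red); marker shapes are replicates and lines are means of 3 libraries. The Itga5 libraries sit between 18.5 and 30.6 CPM at 0 h PCS and between 84.0 and 147 CPM at 6 h PCS, whereas the groups of Itga6, Itgb5 and Itgb8 overlap.

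Itga5 (ENSMUSG00000000555, chr15:103344286-103366791 in GRCm38) encodes alpha5, which binds fibronectin with beta1. Its level was 29.0, 18.5 and 30.6 CPM in replicates 1 to 3 at 0 h PCS, and 84.0, 147 and 130 CPM at 6 h PCS. Every 6 h PCS library was thus above every 0 h PCS library, and the lowest of them exceeded the highest 0 h PCS library by far more than the spread at 0 h PCS. The mean went from 26.0 ± 6.54 to 120.2 ± 32.6 CPM (n = 3 each). The log2 fold change was 2.21 (SE 0.254, 95% interval 1.64 to 2.78), with an adjusted p of 0.0011 in edgeR's quasi-likelihood test. In fold terms the interval ran from 3.11 to 6.86. Itga5 was a DEG whichever library was left out, with log2 fold changes from 2.01 to 2.41.

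Itgav (ENSMUSG00000027087, chr2:83722303-83806917) encodes alphaV, the alpha chain shared by the RGD-binding receptors. It was counted at 276, 230 and 290 CPM at 0 h PCS and at 322, 382 and 425 CPM at 6 h PCS. The groups did not overlap, and the gap between them was about as wide as the SD at 0 h PCS. The means were 265.0 ± 31.4 and 376.5 ± 51.8 CPM, and the log2 fold change was 0.51 (SE 0.156, 95% interval 0.16 to 0.85), with an adjusted p of 0.0791 in the edgeR test. Itgav passed the FDR limit, still below the fold limit, without 6 h PCS replicate 1, where its log2 fold change was 0.60 and its adjusted p by edgeR's quasi-likelihood test 0.0336. Scaling on library size alone gave it a log2 fold change of 0.20.

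Itga6 (ENSMUSG00000027111, chr2:71786886-71858427) encodes the alpha chain of the laminin receptors alpha6-beta1 and alpha6-beta4. Its level was 472, 365 and 477 CPM at 0 h PCS and 529, 365 and 585 CPM at 6 h PCS. Replicate 2 was the lowest library at both time points, and its values there were nearly equal. The means were 438.0 ± 63.1 and 493.2 ± 114 CPM. The log2 fold change of 0.17 (SE 0.194, 95% interval −0.26 to 0.60) had an adjusted p of 0.646 in edgeR's quasi-likelihood test, and the interval reached from 0.834 to 1.52 times the 0 h PCS level.

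Itgb1 (ENSMUSG00000025809, chr8:128685654-128733579) encodes beta1, the partner of alpha5, alpha6 and alphaV. It was at 215, 190 and 218 CPM at 0 h PCS and at 234, 238 and 300 CPM at 6 h PCS. The 6 h PCS libraries were all above, with replicate 3 the highest of them. The means were 207.5 ± 15.7 and 257.6 ± 37.0 CPM, with a log2 fold change of 0.31 (SE 0.147, 95% interval −0.02 to 0.64) and an adjusted p of 0.24 in edgeR's quasi-likelihood test. On library size alone its log2 fold change was −0.0050.

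Itgb5 (ENSMUSG00000022817, chr16:33829665-33949338) encodes beta5, which with alphaV makes a vitronectin receptor. Its level was 412, 347 and 401 CPM at 0 h PCS and 386, 293 and 288 CPM at 6 h PCS. Replicate 1 at 6 h PCS lay within the 0 h PCS range, and replicates 2 and 3 lay under it. The means were 386.9 ± 34.9 and 322.2 ± 55.1 CPM, and the log2 fold change was −0.26 (SE 0.157, 95% interval −0.62 to 0.09), with an adjusted p of 0.356 in edgeR's quasi-likelihood test. With scaling on library size alone it was −0.59 with an adjusted p of 0.0301 in the same edgeR test, when 10.9% of all genes tested passed the FDR limit as lower at 6 h PCS and the median of all genes tested was at −0.32.

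Itgb8 (ENSMUSG00000025321, chr12:119162803-119238276) encodes beta8, which with alphaV binds latent TGF-beta and takes part in its activation. Its level was 42.5, 54.0 and 50.3 CPM at 0 h PCS and 40.7, 38.7 and 63.3 CPM at 6 h PCS. The highest and the lowest of these 6 values were both from 6 h PCS. The means were 48.9 ± 5.89 and 47.5 ± 13.6 CPM, and the log2 fold change of −0.04 (SE 0.202, 95% interval −0.49 to 0.41) had an adjusted p of 0.926 in edgeR's quasi-likelihood test. Its sign turned when single libraries were left out, over a range of −0.30 to 0.07.

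RefSeq places a second gene within the span of Itga5 (Mir6963), Itgav (Dnmt3l-ps1) and Itgb8 (Gm52023). The strand setting of the counting is not given in the sources used here, so reads shared with these genes are uncertain. Replicate 3 at 6 h PCS, which had the highest pigment cell and platelet marker sums, was left out as a further check. The log2 fold changes of the members were then 2.15 for Itga5, 0.41 for Itgav, 0.03 for Itga6, 0.19 for Itgb1, −0.19 for Itgb5 and −0.30 for Itgb8, and Itga5 was still the single DEG among them.

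**Figure D2:**
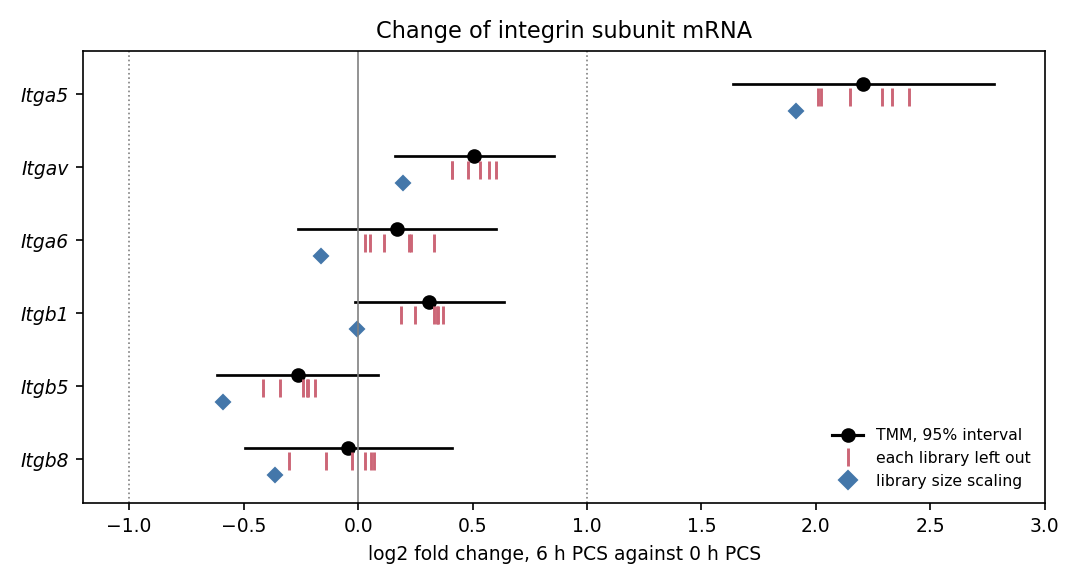
Log2 fold change of each integrin subunit at 6 h against 0 h PCS. Black points and bars are the TMM-normalized edgeR estimate and its 95% interval, red ticks the same fit with each library left out, blue diamonds the fit scaled on library size alone, and dotted lines a fold of 2. Itga5 stays above a fold of 2 throughout (1.91 to 2.41), while the diamonds of Itga6 and Itgb1 lie under 0 and their TMM estimates above it.

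Levels of different genes can be compared only per length. Exon lengths were at hand for Itgav and Itga5 alone, and the order of the other members was not analysed here. In FPKM, fragments per kilobase of exon per 1000000 of the TMM-effective library size, Itgav was at 24.7 ± 2.92 and Itga5 at 5.28 ± 1.33 at 0 h PCS (n = 3). At 6 h PCS the values were 35.0 ± 4.82 FPKM for Itgav and 24.4 ± 6.61 FPKM for Itga5. Taken on the total gene count without TMM, they were 27.5 and 5.89 FPKM at 0 h PCS and 31.5 and 22.2 FPKM at 6 h PCS for Itgav and Itga5. Within the libraries, Itgav exceeded Itga5 per length by 4.36-, 5.69- and 4.36-fold at 0 h PCS and by 1.76-, 1.19- and 1.51-fold at 6 h PCS. Itgav mRNA was therefore the higher of the pair in all 6 libraries, by a smaller margin in each 6 h PCS library than in any 0 h PCS library.

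The next question was whether the balance between subunits shifted, among chains of one kind, which can compete for a partner, and between alpha chains and beta1. A ratio of counts within a library does not depend on how libraries are scaled, and its change between time points does not depend on gene length. There were 9 such ratios, each compared by an exact two-sided permutation test of 3 against 3 libraries, which cannot give a p below 0.10. None could therefore pass 0.05, and the smallest adjusted p over the 9 ratios was 0.18.

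Among the alpha chains, Itga5 counts were higher relative to both others in each 6 h PCS library than in any 0 h PCS library. The ratio of Itga5 to Itgav counts was 0.105, 0.0807 and 0.105 at 0 h PCS and 0.261, 0.385 and 0.305 at 6 h PCS. The mean log2 ratio went from −3.37 ± 0.222 to −1.68 ± 0.284, a 3.24-fold difference (exact permutation p = 0.10). Against Itga6 the difference was 4.13-fold (log2 difference 2.05) and against Itgb1 3.72-fold (log2 difference 1.90), also without overlap and at the smallest exact permutation p of 0.10. Of the reads on the 3 alpha chains, Itga5 took 3.53% ± 0.443 at 0 h PCS and 12.3% ± 3.82 at 6 h PCS. Itga6 took 60.0% ± 0.643 and 49.6% ± 8.02, and Itgav 36.4% ± 0.979 and 38.2% ± 4.20. These are shares of reads, which also depend on gene length.

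The ratios of Itgav differed less between time points. Its ratio to Itgb1 was 1.28, 1.21 and 1.33 at 0 h PCS and 1.37, 1.60 and 1.42 at 6 h PCS, without overlap, at a log2 difference of 0.20 (exact permutation p = 0.10). The ratio of Itgav to Itga6 differed by 0.35 on the log2 scale and that of Itga6 to Itgb1 by −0.15, and both overlapped between time points (exact permutation p = 0.20 and 0.70).

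Among the beta chains, the ratio of Itgb5 to Itgb1 counts was 1.92, 1.83 and 1.84 at 0 h PCS, a narrow range, and 1.65, 1.23 and 0.958 at 6 h PCS. All 6 h PCS libraries lay below, with a log2 difference of −0.58 at the smallest p that the exact permutation test allows (0.10, adjusted 0.18), and neither gene alone passed the FDR limit. Of the reads on the 3 beta chains, Itgb5 took 60.1% ± 1.41 and then 51.3% ± 7.10, Itgb1 32.3% ± 0.293 and then 41.1% ± 5.35, and Itgb8 7.67% ± 1.41 and then 7.55% ± 1.90. The ratios of Itgb8 to Itgb1 and to Itgb5 differed by −0.38 and 0.20 on the log2 scale and overlapped between time points (exact permutation p = 0.20 and 0.60).

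**Figure D3:**
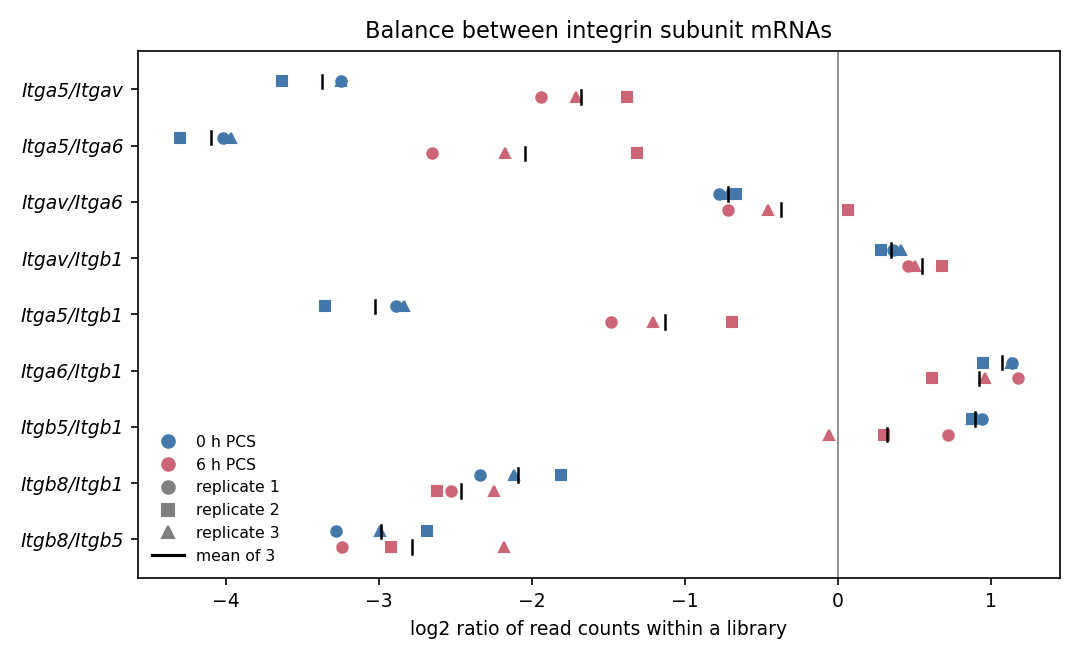
Log2 ratio of read counts between pairs of subunits within each library at 0 h PCS (blue) and 6 h PCS (red); shapes are replicates, and short lines are means of 3. The 3 ratios with Itga5 lie higher at 6 h PCS without overlap, by 1.70 to 2.05, Itgb5/Itgb1 lies lower (log2 difference −0.58), and 4 of the 9 ratios overlap.

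The members were then set beside 7 lists of genes that work with them. Gene names were at hand for 6374 of the genes tested, and many of these come from tables of changed genes, so that 11.6% of the named genes were DEGs higher at 6 h PCS. Over the lists together, 12 of 58 distinct genes tested (20.7%) were DEGs higher at 6 h PCS, none was a DEG lower at 6 h PCS, and 7 more passed the FDR limit with a rise of less than 2-fold. The lists were read by these counts and their medians alone, and the median over all named genes was 0.19.

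Of 20 other integrin subunits, 9 could be named and tested, and 2 were DEGs, both higher at 6 h PCS, with a median log2 fold change of 1.46. Itga7 encodes a laminin-binding alpha chain that pairs with beta1. It was at 9.08, 7.40 and 20.3 CPM at 0 h PCS and at 64.6, 44.1 and 73.6 CPM at 6 h PCS, clear of each other, with a log2 fold change of 2.31 (SE 0.410) and an adjusted p of 0.0165 by edgeR's quasi-likelihood test. It lost its call, at adjusted p-values of 0.0566 to 0.0763 in the same edgeR test, when 0 h PCS replicate 1, 6 h PCS replicate 1 or 6 h PCS replicate 3 was left out, although its log2 fold change remained between 2.04 and 2.88 over all 6 omissions.

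Itga2b, the alpha chain of the platelet fibrinogen receptor, was at 3.18, 2.66 and 5.31 CPM at 0 h PCS and at 7.65, 7.73 and 15.2 CPM at 6 h PCS. Its log2 fold change was 1.46 (SE 0.383, adjusted p = 0.0454 in the edgeR test) and it was a DEG in 2 of the 6 fits without a library. Its partner Itgb3 was at 0.516, 0.255 and 0.388 CPM at 0 h PCS and at 0.805, 1.39 and 7.35 CPM at 6 h PCS, with a log2 fold change of 3.03 (SE 0.864, adjusted p = 0.0607 in the edgeR test). Itgb3 was called by edgeR's exact test (adjusted p = 0.0113), by DESeq2 (0.00414) and with no low-count filter (0.000523). Both were highest in 6 h PCS replicate 3, the library with the highest sum of platelet markers (36.8 CPM, against 8.32 and 11.1 CPM in the other 6 h PCS libraries), and Itga2b is itself one of those markers. Without that library their log2 fold changes were 1.05 and 1.51, and neither was called by the quasi-likelihood test. The part of platelets in these values was not tested.

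The other tested integrins did not pass the test. Itga3, an alpha chain of laminin receptors, was at 140.9 ± 17.4 and 130.5 ± 9.35 CPM (log2 fold change −0.11). Itgb4, the partner of alpha6 in hemidesmosomes, was at 1.70 ± 0.350 and 2.23 ± 1.31 CPM (0.40, and −0.19 to 0.71 over the 6 omissions). Itga1 and Itga2, alpha chains of collagen receptors, had log2 fold changes of −0.38 and −0.75, at mean levels of 1.06 to 4.17 CPM. The leukocyte chain Itgam had a log2 fold change of 1.50, and of 1.03 to 2.33 over the 5 fits without a library that tested it. That of the epithelial beta chain Itgb6 was 2.13 (adjusted p = 0.163 in the edgeR test), and 1.61 to 2.68 over the 6 omissions. Both stayed at 2.23 CPM or less in every library.

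Of 14 ligands of the RGD and fibronectin type, 10 were tested and 3 were DEGs, all higher at 6 h PCS, with a median log2 fold change of 0.75. Thbs1 encodes thrombospondin 1, a matricellular protein. It was at 35.6, 20.3 and 40.2 CPM at 0 h PCS and at 229, 247 and 638 CPM at 6 h PCS (log2 fold change 3.54, SE 0.536, adjusted p = 0.016 by edgeR's quasi-likelihood test). Ccn1, another matricellular protein bound by alphaV and alpha6 integrins, went from 90.2 ± 41.4 to 886.2 ± 202 CPM (3.30, SE 0.336, adjusted p = 0.00114 in the edgeR test). Tgfbi, a TGF-beta-induced matrix protein, went from 12.1 ± 6.65 to 51.7 ± 11.2 CPM (2.10, SE 0.372, adjusted p = 0.0135 in the edgeR test). Ccn1 was a DEG in all 6 fits without a library, while Thbs1 and Tgfbi each missed the FDR limit in 1 of them, without 0 h PCS replicate 1 and without 6 h PCS replicate 1 (adjusted p = 0.0624 and 0.059 in the edgeR test). Without 6 h PCS replicate 3, its highest library, Thbs1 was still called at a log2 fold change of 2.89, 7.43-fold in place of 11.6-fold.

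Fn1, which encodes fibronectin, the ligand of alpha5-beta1, was at 33.0, 20.8 and 33.7 CPM at 0 h PCS and at 31.3, 22.5 and 31.4 CPM at 6 h PCS. The time points overlapped, with replicate 2 the lowest at each. The log2 fold change was −0.04 (SE 0.223, 95% interval −0.54 to 0.46, adjusted p = 0.939 in the edgeR test).

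Of 20 laminin and basement membrane genes, 6 were tested here, with a median log2 fold change of 0.29, and none of these 6 was a DEG by edgeR's quasi-likelihood test, by its exact test or in any of the 6 fits without a library. At an unadjusted p under 0.05 in the quasi-likelihood test 3 of the 6 passed (Lama5, Nid2 and Agrn), beside 23% of all genes tested. Lama5, an alpha chain of basement membrane laminins, was at 302, 254 and 370 CPM at 0 h PCS and at 583, 412 and 426 CPM at 6 h PCS. The time points did not overlap, and the log2 fold change was 0.62 (SE 0.189, 95% interval 0.20 to 1.04, adjusted p = 0.0776 in the edgeR test). DESeq2 gave it an adjusted p of 0.0254 at 0.62, under the fold limit. The other alpha chain tested, Lama3, had a log2 fold change of 0.29 (adjusted p = 0.422 in the edgeR test), and Lamb2, a beta chain, one of 0.09 (adjusted p = 0.723 in the edgeR test). Lama1 and Lamc1 were not analysed here.

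Of 12 genes of latent TGF-beta and its receptors, 8 were tested and 1 was a DEG, higher at 6 h PCS, with a median log2 fold change of 0.35. Tgfb2, a TGF-beta ligand, was at 470, 433 and 521 CPM at 0 h PCS and at 938, 900 and 1188 CPM at 6 h PCS. Its log2 fold change was 1.09 (SE 0.157, adjusted p = 0.0029 in the edgeR test), which sits just over the fold limit and fell to 0.95 without 6 h PCS replicate 3 and to 0.77 on library size alone, both under the limit. Ltbp1, which tethers latent TGF-beta to the matrix, passed the FDR limit at 0.56 (SE 0.148, adjusted p = 0.0475 in the edgeR test) and missed it in 4 of the 6 fits without a library. Tgfb1, another ligand, was at 34.2 ± 5.93 and 44.2 ± 10.5 CPM (0.37, adjusted p = 0.329 in the edgeR test). The alphaV-beta8 chains that bind the latent forms were, as given above, at 0.51 for Itgav and −0.04 for Itgb8.

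Of 31 adaptors and kinases of integrin adhesions, 16 were tested, 3 were DEGs higher at 6 h PCS and 4 more passed the FDR limit with a smaller rise, with a median log2 fold change of 0.59. Vcl encodes vinculin, which links talin to actin. It was at 110, 116 and 126 CPM at 0 h PCS and at 341, 409 and 550 CPM at 6 h PCS (log2 fold change 1.89, SE 0.186, adjusted p = 0.000411 by edgeR's quasi-likelihood test), a call kept whichever library was left out. Ptk2b, a kinase related to focal adhesion kinase, had a log2 fold change of 1.27 (SE 0.310) and Tgfb1i1, the paxillin relative Hic-5, one of 1.16 (SE 0.284). These calls were near the limit, with adjusted p-values of 0.0367 and 0.0335 in the edgeR test, and were lost in 4 and 5 of the 6 fits without a library.

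The smaller rises were those of Fermt2 (kindlin-2, which binds beta tails to activate integrins) at 0.94 (SE 0.156), Pxn (paxillin) at 0.94 (SE 0.149), Actn1 at 1.00 (SE 0.168, a fold just under 2) and Actn4 at 0.62 (SE 0.123), with Actn1 and Actn4 encoding alpha-actinins that crosslink actin. Their adjusted p-values ran from 0.00487 to 0.0141 in edgeR's quasi-likelihood test. Without single libraries Actn1 became a DEG in 3 of 6 fits, Fermt2 in 2 and Pxn in 1, and Actn4 missed the FDR limit in 3. Tln1, which encodes talin 1, was at 239.2 ± 11.8 and 286.5 ± 22.6 CPM (0.26, SE 0.130, adjusted p = 0.268 in the edgeR test). Ptk2 and Ilk were not analysed here.

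Of 5 hemidesmosome genes, 4 were tested, 2 were DEGs higher at 6 h PCS, and the median log2 fold change was 1.01. Dst encodes dystonin, a form of which links alpha6-beta4 to intermediate filaments, and counts per gene do not separate its forms. It was at 1186, 1015 and 1387 CPM at 0 h PCS and at 3416, 1979 and 2354 CPM at 6 h PCS (log2 fold change 1.11, SE 0.216, adjusted p = 0.0125 in the edgeR test). Without 6 h PCS replicate 1, the highest library, it was 0.85, and without 0 h PCS replicate 1 its adjusted p was 0.071 in the edgeR test. Plec, the related linker plectin, passed the FDR limit at 0.91 (SE 0.219, adjusted p = 0.0321 in the edgeR test), and passed it in only 1 of the 6 fits without a library.

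Col17a1, a transmembrane collagen of hemidesmosomes, was at 0.817, 0.109 and 0.475 CPM at 0 h PCS and at 1.95, 7.51 and 4.10 CPM at 6 h PCS (log2 fold change 3.28, SE 0.738, adjusted p = 0.024 in the edgeR test). It lost its call without 0 h PCS replicate 3 or 6 h PCS replicate 2 (adjusted p = 0.077 and 0.11 in the edgeR test), and its log2 fold change ran from 2.68 to 3.96 over the 6 omissions. The surface keratins Krt12 and Krt5, 2 of the 3 matched markers of corneal epithelium, were also higher in each 6 h PCS library (44.2 to 65.8 and 24.9 to 38.4 CPM) than in any 0 h PCS library (at most 7.01 and 7.70 CPM), while the third, Aldh3a1, was at 346.9 to 481.0 and then 230.8 to 346.6 CPM. The part of corneal cells in the Col17a1 values was not tested.

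Of 11 membrane partners of integrins, 6 were tested and 1 was a DEG, higher at 6 h PCS, with a median log2 fold change of 0.27. Sdc4 encodes syndecan 4, a proteoglycan that acts with alpha5-beta1 on fibronectin. It was at 389, 275 and 397 CPM at 0 h PCS and at 792, 739 and 943 CPM at 6 h PCS (log2 fold change 1.22, SE 0.178, adjusted p = 0.00307 in the edgeR test). The call was kept whichever library was left out, and on library size alone it passed the FDR limit at 0.90, under the fold limit. Adam15, a disintegrin metalloproteinase, passed the FDR limit at 0.93 (SE 0.243, adjusted p = 0.0453 in the edgeR test) and did so in only 1 of the 6 fits without a library.

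**Figure D4:**
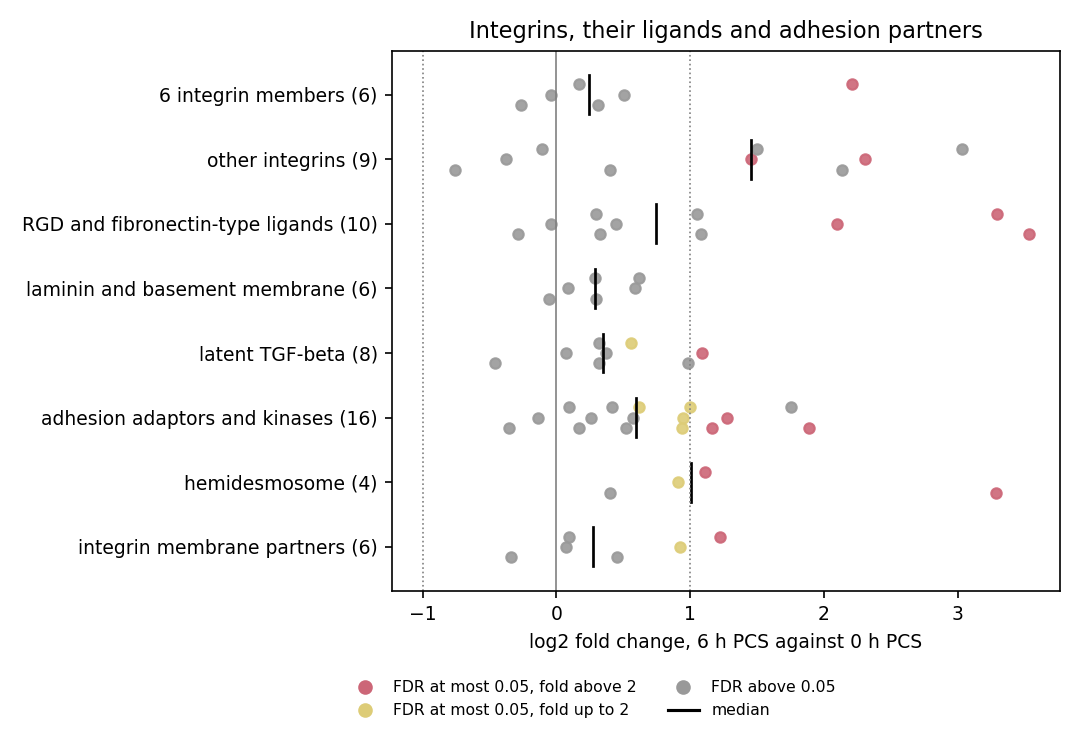
Log2 fold change at 6 h against 0 h PCS of each tested gene, by list, with the number tested in parentheses; red points are DEGs, yellow points passed the FDR limit with a fold of up to 2, grey points did not pass, black lines are list medians and dotted lines a fold of 2. Red points lie only on the right. The medians run from 0.24 for the 6 members to 1.46 for the other integrins, many of whose members had low counts. List genes were tested only where a name was at hand, and many names come from tables of changed genes.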

How the data were processed

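LECs on lens capsules of wildtype mice were sequenced at 0 h and 6 h PCS, with 3 libraries per time point, grouped by the time point in the labels. The authors prepared ribodepleted stranded libraries, used Hisat2 to align the 101 nt read pairs to GRCm38, and assigned pairs to Ensembl genes by the union mode of HTSeq. They deposited raw counts, one file per library, whose 5 summary rows were left out of every total. The strand setting and any trimming are not given in the sources used here.

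Counts were analysed with edgeR 4.0.16 in R 4.3.3: TMM, the edgeR low-count filter by group, robust dispersions and the quasi-likelihood F test in its earlier form, with Benjamini-Hochberg adjustment over 16810 genes. The SE is the absolute log2 fold change over the square root of F. On data simulated for this comparison over 16810 genes, with 200 genes shifted by 2 on the log2 scale, 145 genes were called, 130 of them shifted. Per the study's methods each pool came from 5 separate animals, and p-values measure the spread between pools. Depths were 18039974 to 24701039 counts. Averaged over the genes tested, replicates of a time point differed beyond counting error (chi-square per degree of freedom 24.9 to 80.5). The errors given thus hold the spread between pools. For genes with few counts, such as Col17a1 (19, 3 and 11 counts at 0 h PCS), they also hold counting error. Reads carry no molecular identifiers in the values used.

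Names and exon lengths came from the study's supplementary tables, which name 7025 of the counted genes, and coordinates from RefSeq on GRCm38.p6. Sequences of the members were not analysed here. Named genes were the 6 members, other tested integrins, the called genes with the 4 smallest p in each list, and Fn1, Lama1, Lamc1, Tgfb1, Tgfb2, Tln1, Fermt2, Ptk2 and Ilk; further list genes were named after their values were seen. One item of the lists is not reported here and is left out of their counts. Members, lists and tests were chosen with earlier results of these data known. Alternatives were DESeq2 1.42.0, its size factors, edgeR's exact test, the edgeR 4 method, no robust estimation, library size alone, no filter, at least 10 counts in every library, a replicate block, and leaving out each library.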

Additional observations from a re-analysis of the deposited data

How the results depend on the processing

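Itga5 was the single member called by FDR and fold under all 15 alternatives run, with log2 fold changes of 1.91 to 2.41. Library size alone, which moved the median of all genes tested from −0.003 to −0.32, turned Itgb1 to −0.0050 and Itga6 to −0.16, took Itgb5 past the FDR limit at −0.59, and left 2 members past that limit and 2574 genes in all, against 1 and 1400. It also lowered the DEGs among the other integrins to 1, the latent TGF-beta genes to 0, the adaptors to 1, the hemidesmosome genes to 1 and the membrane partners to 0. Of the genes past the FDR limit alone, Actn4, Plec, Adam15 and Ltbp1 missed it there (adjusted p = 0.181, 0.0662, 0.14 and 0.331 in the edgeR test), while Fermt2, Pxn and Actn1 kept it. Ltbp1 also missed it in edgeR's exact test (adjusted p = 0.0614). edgeR's exact test gave 3 DEGs among the other integrins and 4 among the adaptors, against 2 and 3, and left the counts of the other lists as they were. Itgav passed the FDR limit with DESeq2 (0.52) and with no low-count filter (0.49), each of which gave 2 members, with 2189 and 2303 genes in all past that limit.

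Leaving out each library gave log2 fold changes of 2.01 to 2.41 for Itga5, 0.41 to 0.60 for Itgav, 0.03 to 0.33 for Itga6, 0.19 to 0.37 for Itgb1, −0.42 to −0.19 for Itgb5 and −0.30 to 0.071 for Itgb8, which was positive without 0 h PCS replicate 2 (0.03), 6 h PCS replicate 1 (0.05) or 6 h PCS replicate 2 (0.071). The members past the FDR limit were 1 to 2, all genes past it 620 to 1376, and DEGs 553 to 877. The log2 differences of the ratios ran from 1.55 to 1.83 for Itga5/Itgav, 1.68 to 2.35 for Itga5/Itga6, 1.68 to 2.07 for Itga5/Itgb1, 0.13 to 0.24 for Itgav/Itgb1, −0.78 to −0.39 for Itgb5/Itgb1, 0.13 to 0.52 for Itgav/Itga6, −0.28 to −0.00072 for Itga6/Itgb1, −0.50 to −0.24 for Itgb8/Itgb1 and −0.10 to 0.43 for Itgb8/Itgb5. The same omission for the lists, chosen after seeing the data, gave DEG counts of 0 to 2 for other integrins, 2 to 3 for RGD ligands, 0 to 2 for latent TGF-beta, 1 to 5 for adaptors, 1 to 2 for hemidesmosome genes and 1 to 2 for membrane partners. The causes were not tested.

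Replicate numbers in the labels name no shared mice, so the pools were not taken as paired. Deviations of same-numbered pools correlated at 0.004, 0.22 and 0.14, and those of differently numbered pools at −0.19 to 0.02. Whether same-numbered pools share mice was not tested. With a replicate block Itga5 had a log2 fold change of 2.20, no member and no DEG of the lists changed its call, and DEGs went from 900 to 1050. Among other list genes, Adam15 missed the FDR limit (adjusted p = 0.0531 in the edgeR test), and Lama5 (0.0482), Flna (0.0387), Tgfbr2 (0.0398) and Ccn2 (0.0333) passed it at folds under 2. Exon lengths from an annotation were not run.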

Other observations

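Among the tested genes with a name, those whose level followed each member most closely over the 6 libraries were ranked by Pearson's r of log2(CPM + 0.5). The libraries span both time points, so genes that differ between them in the same direction have a high r by construction, and 333 of all 16810 genes tested had an r above 0.95 with Itga5. The closest to Itga5 were Ppp1r18, a phosphatase regulatory subunit that binds actin (r = 0.997, log2 fold change 2.11), the predicted gene Gm37060 (r = 0.997, 2.26) and F3, which encodes tissue factor (r = 0.996, 4.76). The closest to Itgav were the NF-kB subunits Relb (r = 0.997, 1.23) and Nfkb1 (r = 0.997, 1.57) and the small GTPase Rras2 (r = 0.995, 0.73), with 183 genes tested above 0.95.

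For Itgb1 the closest were Arhgap20, Xbp1 and Acat3 (r = 0.991 to 0.995, with 116 above 0.95), and for Itgb5 Scarf2, Tcf7l1 and Tbce (r = 0.989 to 0.995, with 96). Itga6 had 40 such genes, led by Nup210, Hsf1 and Abca2, and Itgb8 had 16, led by Pttg1, Znhit6 and Ung; the log2 fold changes of these last 6 genes lay between −0.17 and 0.18. Between members, r was 0.952 for Itgav with Itga5, 0.940 for Itgav with Itgb1 and 0.829 for Itga5 with Itgb1, and it was negative for Itgb5 with Itgav (−0.685), with Itga5 (−0.693) and with Itgb1 (−0.606). These are descriptions of 6 libraries.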
